A study of Mus musculus with 14 samples.

Results

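Rab7b and its paralog Rab7 (also called Rab7a) are 2 of the 23282 genes in the count table of epididymal white adipose tissue (eWAT) from mice fed a Western diet (WD). The members were the rows with these gene symbols, 1 row each. Rab7b was chosen by its measured level in these libraries, which was higher on the WD, so its difference between the diets is given as a description without a test. Rab7 was taken as its paralog. All animals were male wild-type C57BL/6J mice, 4 weeks old at the start per the study's methods, and both groups were fed for 20 weeks. The control group received a normal diet, and the WD group a diet richer in fat with added cholesterol. QuantSeq 3′-mRNA sequencing covered 4 controls (batch 1 controls 1 to 4) and 5 WD mice (WD 1 to 5) in batch 1 and 5 controls (batch 2 controls 1 to 5) in batch 2. All WD libraries are from batch 1, so where the WD group is set against the batch 2 controls, diet cannot be told apart from batch.

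Rab GTPases are small switch proteins that recruit effectors to membranes when they carry GTP and leave them after GTP is hydrolysed. Rab7 is made in most cell types and directs late endosomes and autophagosomes to lysosomes. Rab7b sits on late endosomes, lysosomes and the trans-Golgi network, takes part in transport from endosomes back to the Golgi, and has been studied mostly in monocytes, macrophages and dendritic cells, where it lowers signaling of Toll-like receptors. In obesity, visceral fat gathers macrophages, and those around dying adipocytes take up lipid.

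The deposited table places Rab7b on chromosome 1 and Rab7 on chromosome 6, and the submitters' processing notes name the build mm10 (GRCm38). Rab7b spans chr1:131688695-131715439 on the plus strand in the GENCODE annotation of GRCm38, with 6 exons and 600 coding bases, and Rab7 spans chr6:87999106-88045270 on the minus strand, with 6 exons and 624 coding bases. Both are protein-coding. Their coding sequences had identical bases at 62.7% of the aligned positions, with a longest identical run of 18 bases. The first 75 coding bases, the length of a read, show how finely the paralogs are interleaved. Capitals mark the 26 positions at which they differ, and the sequences run 5′ to 3′ from the start codon. The Rab7b stretch lies in coding parts of exons at chr1:131697014-131697066 and chr1:131697829-131697850, and the Rab7 stretch at chr6:88013638-88013690 and chr6:88012412-88012433.
Rab7b: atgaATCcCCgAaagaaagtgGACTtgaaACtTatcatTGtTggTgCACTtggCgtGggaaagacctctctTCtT
Rab7: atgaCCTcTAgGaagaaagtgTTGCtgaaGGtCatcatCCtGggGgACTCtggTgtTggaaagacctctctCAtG

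Reads with more than 1 alignment were included in the counts, so shared sequence could have mixed the paralogs. None of the 4811 stretches of 75 bases in the Rab7b transcripts occurred in a transcript of Rab7 or of any other annotated gene. Of the 2806 stretches of Rab7, 287 (10.2%) occurred in other genes and 0 in Rab7b. They lay, some of them in both, in the pseudogene Rab7-ps1 (251 stretches) and, on the opposite strand, in the antisense gene Gm5577 (137 stretches), whose annotated span overlaps Rab7 by 6366 bases. The table's Gm5577 entry had at most 66 counts in a library, where Rab7 had at least 991. That entry lies 14926 bases from Rab7, so its counts do not cover the annotated overlap. Rab7-ps1 is not analysed here, and whether the counting used strand is not given in the sources used here. What part of the Rab7 counts came from shared or antisense sequence was not tested. In the table itself no other entry overlaps either member. The table's Rab7b entry ends 1975 bases before the annotated 3′ end, and QuantSeq reads start near the poly(A) tail. What share of Rab7b reads fell beyond the entry was not tested.

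Rab7b was low in the controls and high in the WD group. In bulk tissue, more cells of a type and more RNA of a gene per cell cannot be told apart. In CPM, the counts scaled to a common library size with TMM factors, batch 1 controls 1 to 4 had 10.7, 72.3, 33.5 and 36.3. Batch 2 controls 1 to 5 had 12.3, 26.4, 36.5, 37.2 and 23.5. WD 1 to 5 had 196, 187, 186, 290 and 124. Every WD library was above every control, and the lowest WD library stood 1.71-fold above the highest control. The counts behind these levels ranged from 100 to 849 in the controls and from 1474 to 3593 in the WD group, far above the floor of 3 counts per library.

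In the batch 1 controls Rab7b averaged 38.2 ± 25.5 CPM (SD, n = 4). In the batch 2 controls it averaged 27.2 ± 10.3 CPM (SD, n = 5), and on the WD 197 ± 59.8 CPM (SD, n = 5). The WD mean was thus 5.15-fold that of the batch 1 controls, 6.13-fold that of all 9 controls and 7.24-fold that of the batch 2 controls. The fitted log2 fold change was 2.38 (standard error 0.48) within batch 1 and 2.62 (standard error 0.35) over all 14 libraries. These comparisons share the WD libraries and, in part, the controls. By the size of the log2 fold change Rab7b ranked 409 among the 12157 genes tested in batch 1 and 152 among the 12653 tested over all libraries. All WD libraries lay above all controls for 359 of the 12157 genes in batch 1 (2.95%) and for 138 of the 12653 genes over all controls (1.09%), and Rab7b was among both.

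**Figure D1:**
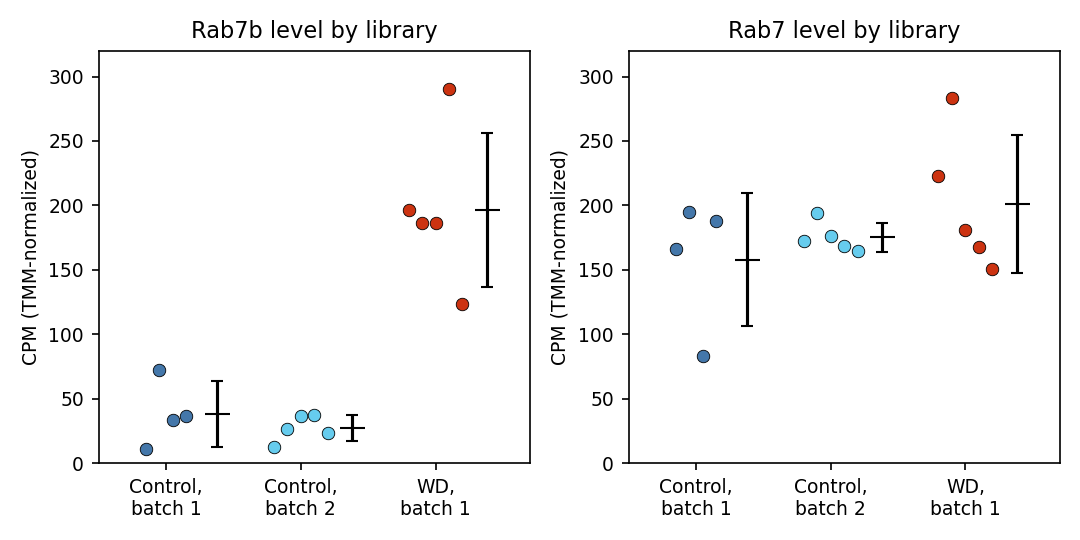
Level of Rab7b (left) and Rab7 (right) in each of the 14 libraries, in TMM-normalized CPM. Points are libraries, in the order of their replicate numbers, and the bar beside each group is its mean ± SD. Rab7b lay between 10.7 and 72.3 CPM in the controls and between 124 and 290 CPM in the WD group, whereas the Rab7 groups overlap.

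The levels of Rab7 overlapped among the 3 groups. Batch 1 controls 1 to 4 had 166, 195, 82.8 and 188 CPM. Batch 2 controls 1 to 5 had 173, 194, 176, 169 and 165 CPM. WD 1 to 5 had 222, 284, 181, 168 and 150 CPM. The groups overlapped: WD 1 and WD 2 were above all controls, the other 3 WD libraries were within the control range, and batch 1 control 3 was the lowest library of all.

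Rab7 averaged 158 ± 51.6 CPM (SD, n = 4) and 175 ± 11.4 CPM (SD, n = 5) in the controls of batch 1 and batch 2, against 201 ± 53.3 CPM (SD, n = 5) on the WD. The WD group did not differ from the batch 1 controls beyond the spread between libraries, with a log2 fold change of 0.36 and a standard error of 0.32 (edgeR FDR = 1.00, and p = 0.333 by a two-sided exact permutation test, smallest possible p 0.0159). Against all 9 controls the value was 0.26 with a standard error of 0.22 (edgeR FDR = 0.978, and p = 0.230 by the exact permutation test). After adjustment over the 5 permutation tests made here by the Benjamini-Hochberg method, each had p = 0.698 from the exact permutation tests. In edgeR 0 of 12157 genes (0%) had an FDR under 0.05 in batch 1, where 628 (5.17%) had an unadjusted p under 0.05, and DESeq2 called 114 genes there. Over all 14 libraries 67 of 12653 genes (0.53%) had an FDR under 0.05. A p above the threshold does not show that the Rab7 levels were equal.

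Among the controls, neither gene passed a test of the difference between the batches. The batch 2 mean of Rab7b was 0.711 times that of batch 1, and its log2 fold change was -0.49 with a standard error of 0.54 (edgeR FDR = 0.950, and p = 0.651 by a two-sided exact permutation test). For Rab7 the change was 0.14 with a standard error of 0.26 (edgeR FDR = 0.982, and p = 0.698 by the exact permutation test). In this comparison 0 of 12106 genes (0%) had an FDR under 0.05, 895 (7.39%) had an unadjusted p under 0.05, and DESeq2 called 111. The sign of both values depended on 1 library. The log2 fold change of Rab7b was 0.02 without batch 1 control 2, and that of Rab7 was -0.06 without batch 1 control 3. In order of mean level Rab7b ran from the WD group through the batch 1 to the batch 2 controls, of which the last pair did not differ beyond its spread. For Rab7 the order was the WD group, batch 2 controls and batch 1 controls, with no difference beyond the spread between libraries in the 3 comparisons.

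Depth was similar throughout, from 10278970 to 13712254 counts per library. A pair of the controls stood apart. Batch 1 control 4 had a count for 7999 genes, against 10903 to 13780 in the other libraries. In batch 1 control 1 the 5 epididymis genes Adam7, Crisp1, Lcn5, Lcn8 and Lcn9 summed to 29772 CPM, against at most 12.1 CPM elsewhere, and the 6 adipocyte genes (Adipoq, Plin1, Lep, Cidec, Fabp4 and Retn) to 4783 CPM, against at least 21844 CPM elsewhere. Batch 1 control 1 also had the lowest Rab7b level. Without it, the log2 fold change of Rab7b was 2.07 (standard error 0.37) in batch 1 and 2.52 (standard error 0.31) over the remaining 13 libraries. Without batch 1 control 4 the values were 2.33 (standard error 0.54) and 2.64 (standard error 0.37). The part of the epididymis RNA, or of the low adipocyte genes, in the level of Rab7b was not tested.

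The count of Rab7b per count of Rab7 in the same library does not depend on scaling between libraries. It was 0.0644, 0.370, 0.405 and 0.193 in batch 1 controls 1 to 4, and 0.0711, 0.136, 0.207, 0.220 and 0.143 in batch 2 controls 1 to 5. In WD 1 to 5 it was 0.883, 0.659, 1.03, 1.73 and 0.823. The highest control remained below the lowest WD library, and Rab7b had more counts than Rab7 in WD 3 and WD 4 alone. The group means were 0.258 ± 0.159 (SD, n = 4), 0.155 ± 0.0604 (SD, n = 5) and 1.02 ± 0.417 (SD, n = 5). This ratio compares libraries. It is not a ratio of transcript numbers, since the share of each gene's reads that falls inside its table entry may differ. Between the control batches the log2 ratio did not differ beyond its spread (difference of -0.53 on the log2 scale, p = 0.476 by a two-sided exact permutation test with 4 and 5 libraries).

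Macrophages are one of the cell types in which Rab7b has been studied. Of 10 macrophage genes, 8 were higher in the WD group over all 14 libraries at an unadjusted p under 0.05 (4.48% of all genes). The 10 macrophage genes (Adgre1, Csf1r, Cd68, Lyz2, Itgam, Fcgr1, Mrc1, Cd163, Ptprc and Spi1) summed to 225 to 1464 CPM in the batch 1 controls, 360 to 732 CPM in the batch 2 controls and 1301 to 1995 CPM in the WD group, and none was at 0 throughout a group. Their sum overlapped between the diets through batch 1 control 4, and the next highest control had 780.3 CPM. Over all 14 libraries 3 of the 10 passed an FDR of 0.05, all higher in the WD group (0.435% of all genes were called higher), with a median log2 fold change over the 10 of 1.80 against -0.04 over all genes tested. These were Adgre1, which encodes the macrophage antigen F4/80 (log2 fold change 2.30, standard error 0.39, FDR = 0.00973), Csf1r, the receptor for the macrophage growth factor CSF1 (log2 fold change 1.84, standard error 0.40, FDR = 0.0395), and Spi1, the myeloid transcription factor PU.1 (log2 fold change 2.02, standard error 0.44, FDR = 0.0418). Of 6 genes of lipid-associated macrophages, 4 were higher at an unadjusted p under 0.05 (4.48% of all genes), with a median log2 fold change of 2.61. Cd9 and Lpl of that list were at 0.24 and -0.12. Itgax, the integrin CD11c, was the 1 gene of the 6 to pass an FDR of 0.05 (log2 fold change 2.75, standard error 0.57, FDR = 0.0278). The 9 other cell type lists had 0 genes past the threshold (0.53% of all genes). Their median log2 fold changes were 0.08 for dendritic cells, 0.38 for monocytes and neutrophils, 1.65 for mast cells and -0.63 for adipocytes. For T and B cells 3 of 7 genes were tested, with a median of 3.45, and 2 were higher at an unadjusted p under 0.05 (4.48% of all genes). The 7 genes summed to 80.9 CPM in WD 3, to at most 9.19 CPM in the other WD libraries and to at most 7.06 CPM in the controls. Endothelium, stromal progenitors and mesothelium had medians of -0.13, 0.17 and -0.02, and the 1 epididymis gene tested was at -8.96. Cd163, a scavenger receptor of macrophages, was the one gene of the 10 with a negative value (log2 fold change -0.64, standard error 0.32, FDR = 0.685). In batch 1 alone 0 macrophage genes passed in edgeR, and 7 of 10 were higher at an unadjusted p under 0.05 (3.35% of all genes).

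Set against single macrophage genes, the count of Rab7b did not separate the diets. Per count of Adgre1 its median was 0.788 in the batch 1 controls, 0.622 in the batch 2 controls and 0.743 in the WD group, and the WD range of 0.488 to 0.922 lay within the control range of 0.209 to 1.10. Per count of Csf1r the medians were 0.235, 0.219 and 0.303 in the same order, and the WD range of 0.207 to 0.610 overlapped that of the controls. Ratios to Cd68, Itgax and Trem2 overlapped as well. Per count of the 10 macrophage genes together, a ratio added after the values were seen, the WD libraries lay at 0.0950 to 0.145 and the controls at 0.0194 to 0.0926, so that the ranges did not overlap but nearly met. The medians of this ratio were 0.0550, 0.0523 and 0.104 in the batch 1 controls, the batch 2 controls and the WD group. The part of macrophage number in the level of Rab7b was not tested.

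**Figure D2:**
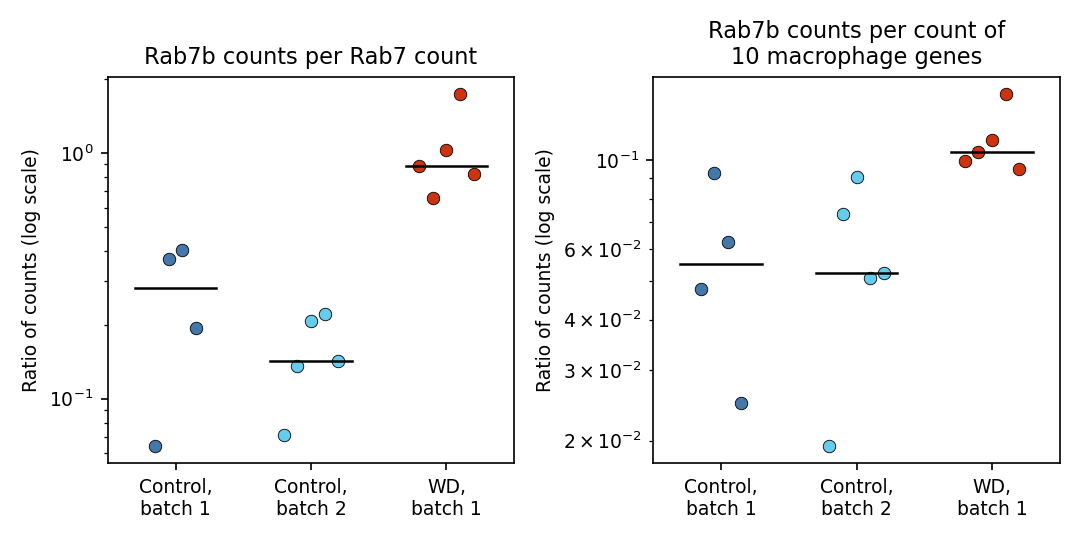
Counts of Rab7b per count of Rab7 (left) and per summed count of 10 macrophage genes (right) in each library, on log scales. Points are libraries and lines are group medians. Per Rab7 the WD libraries lie at 0.659 or above and the controls at 0.405 or below, whereas per macrophage count the lowest WD library (0.0950) is close to the highest control (0.0926).

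In batch 1 control 4, the library with the fewest genes detected and with 1 of the 10 macrophage genes at 0, Rab7b stood at the level of the controls while 4 genes of macrophages were high. That library had 174 CPM of Adgre1, 405 of Csf1r, 342 of Cd68 and 144 of Trem2, a lipid receptor of macrophages, which was for each the highest level of the 9 controls. Cd68 and Trem2 in it were within the range of the WD libraries. Its Rab7b level of 36.3 CPM lay within the range of the other controls, and its Rab7b count per Cd68 count, 0.106, was the lowest of all libraries. Across the 9 controls the level of Rab7b showed no correlation that passed its test with Adgre1 (Pearson r = 0.46, p = 0.208 and Spearman rho = 0.35, p = 0.359 by exact permutation), Csf1r (r = 0.35, p = 0.353 and rho = 0.47, p = 0.213 by exact permutation), Itgax (r = 0.34, p = 0.377 and rho = 0.63, p = 0.0760 by exact permutation) or Rab7 (r = 0.04, p = 0.904 and rho = 0.47, p = 0.213 by exact permutation). Adjusted over the 4 relations, the lowest exact permutation p was 0.503 for r and 0.283 for rho. Without the 2 libraries farthest from the median of the other gene, r was 0.13 for Adgre1, -0.09 for Csf1r, 0.42 for Itgax and 0.41 for Rab7. No r was computed within a batch, with 4 and 5 controls.

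**Figure D3:**
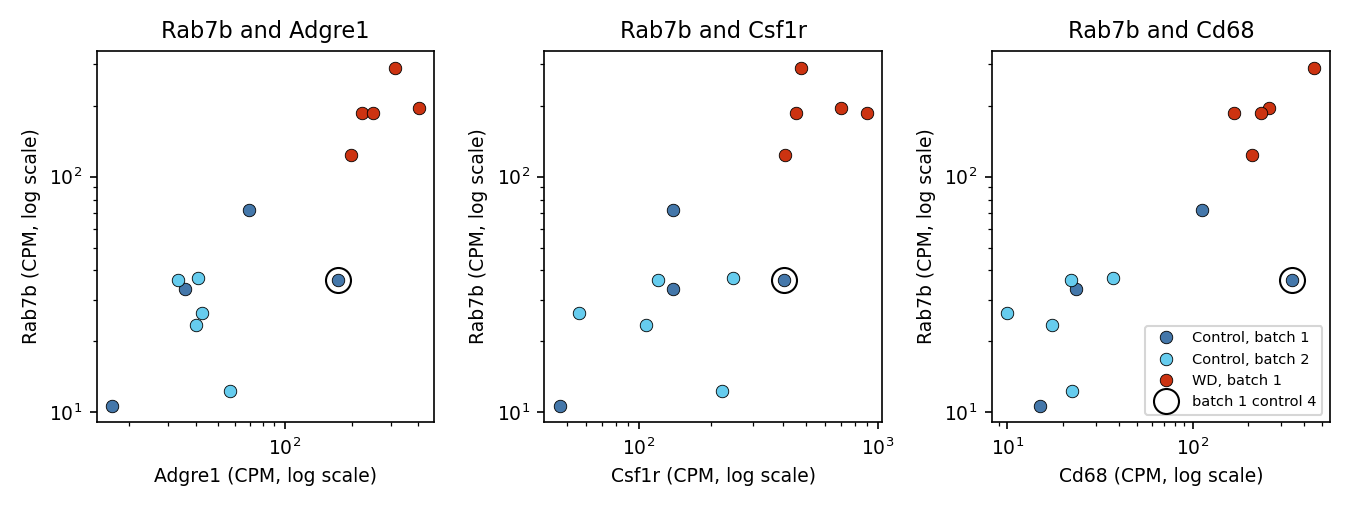
Level of Rab7b against that of Adgre1, Csf1r and Cd68, in CPM on log scales, with 1 point per library. The circled library, batch 1 control 4, has 342 CPM of Cd68, within the WD range, but 36.3 CPM of Rab7b, within the control range.

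The genes whose log2(CPM + 1) was most like that of Rab7b over the 14 libraries had Pearson r from 0.89 to 0.91, as a description in which the libraries share the split between diets. The most alike was Peg3, an imprinted zinc finger gene (r = 0.91), with a mean of 59.4 CPM in the batch 1 controls, 48.2 in the batch 2 controls and 117 in the WD group. Plin2, which encodes a coat protein of lipid droplets, followed (r = 0.91), with 487, 409 and 1318 CPM. The others were Mef2c, Pde2a, Tyrobp, Lgals3bp, Htr2b, Tmem106a, Anxa5 and Pam. Tyrobp encodes an adaptor of myeloid receptors that include TREM2, and Anxa5 a protein that binds phosphatidylserine. In all of the 10 except Peg3 every WD library was above every control (1.09% of all genes). The 10 were chosen for likeness to Rab7b, which separates the diets, so their separation is largely fixed by that choice. With the mean of each group removed, r was 0.85 for Tmem106a, 0.80 for Peg3, 0.73 for Plin2, 0.72 for Anxa5, 0.71 for Mef2c and 0.63 for Pde2a. It was lower for Tyrobp (0.52), Pam (0.45), Lgals3bp (0.45) and Htr2b (0.34), of which Htr2b had at most 0.852 CPM in a control.

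Rab7 had an r of 0.33 with Rab7b over the 14 libraries and 0.11 with group means removed. The genes most like Rab7 were others, namely Tcta (r = 0.82), Cyb5r1 (r = 0.82), Ick (r = 0.78), Yipf3 (r = 0.77) and Nedd8, a ubiquitin-like modifier (r = 0.76). For each of these the WD libraries overlapped the controls. Tcta, for example, had means of 21.8, 26.6 and 25.9 CPM in the batch 1 controls, the batch 2 controls and the WD group.

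A symbol of the Rab GTPase family was carried by 59 genes, and 46 passed the filter on low counts over all 14 libraries. Of the 44 besides the 2 paralogs, 0 passed an FDR of 0.05 in edgeR (0.435% of all genes were called higher and 0.0948% lower) and 0 in DESeq2, and 2 had an unadjusted p under 0.05 (7.73% of all genes). Their median log2 fold change was 0.06, against -0.04 over all genes tested. The 3 most abundant members besides Rab7 had values near 0: Rab10, which serves exocytosis of the glucose transporter GLUT4 in adipocytes, was at -0.01 on the log2 scale (standard error 0.22), Rab14 at -0.08 (standard error 0.18) and Rab6a, a Golgi GTPase, at 0.03 (standard error 0.21). In batch 1 0 of 43 passed in edgeR and 4 had an unadjusted p under 0.05, all higher (3.35% of all genes). Among them Rab30 was called by DESeq2.

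The 2 genes with an unadjusted p under 0.05 over all libraries, named after their values were seen, were Rab5c and Rab8b. Rab5c, a GTPase of early endosomes, had 89.2, 146, 60.6 and 128 CPM in batch 1 controls 1 to 4. It had 109, 96.2, 80.6, 143 and 111 CPM in batch 2 controls 1 to 5, and 177, 251, 143, 182 and 154 CPM in WD 1 to 5. Of its 5 WD libraries 4 were above all controls (log2 fold change 0.76, standard error 0.23, edgeR FDR = 0.208). Rab8b, which acts in transport to the plasma membrane, was at 1.32 on the log2 scale (standard error 0.49, edgeR FDR = 0.379). Its level in batch 1 control 4, 32.4 CPM, was above that of 4 of the 5 WD libraries. Without that library Rab8b was at 1.70 with an edgeR FDR of 0.0209.

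**Figure D4:**
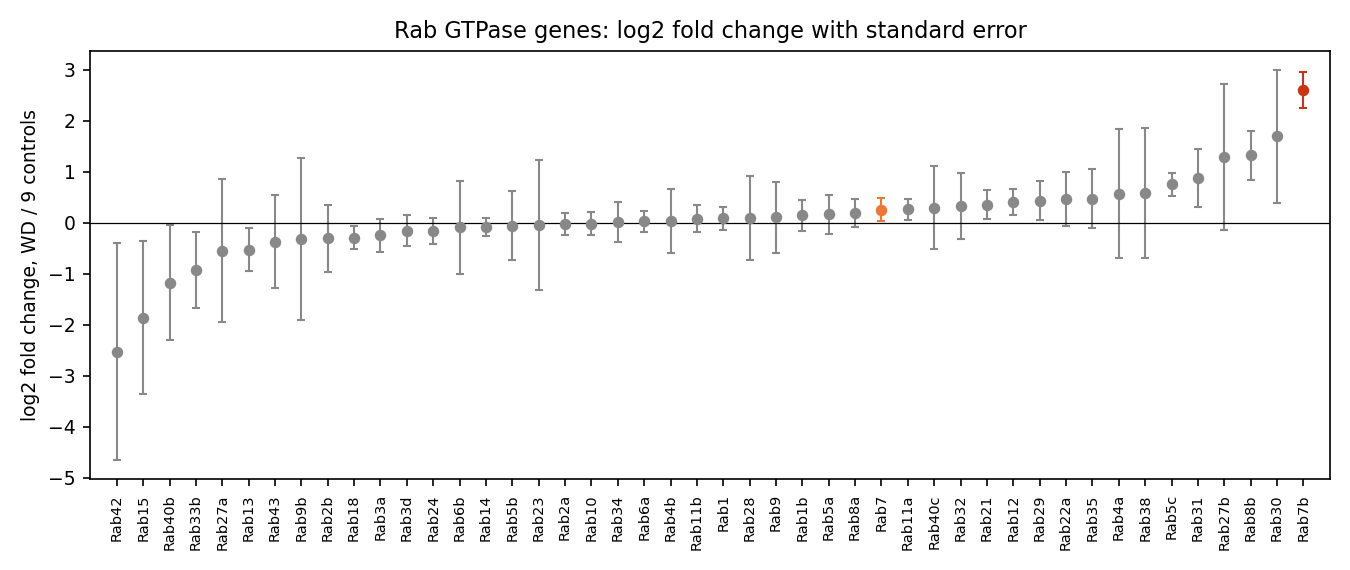
Log2 fold change of the 46 tested Rab GTPase genes between the WD group and all 9 controls, in order of size, with the standard error of the edgeR fit. Rab7b (red), chosen for its rise, is at 2.62, the highest value in this comparison, and Rab7 (orange) at 0.26. In batch 1 alone, not shown, Rab7b was at 2.38. Higher there were Rab9b (5.81, standard error 2.25), Rab30 (5.67, standard error 2.03) and Rab27b (2.95, standard error 2.06). Wide bars belong to genes with few counts.

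Genes that act on or with Rab7 were described by fixed lists. The nucleotide and membrane cycle of Rab7 was represented by 12 genes, among them the exchange factor subunits Mon1a, Mon1b and Ccz1, which load Rab7 with GTP, the GTPase-activating proteins Tbc1d2, Tbc1d5 and Tbc1d15, and the GDI proteins, which take Rab GTPases off membranes. Over all 14 libraries 0 of the 12 passed an FDR of 0.05 in edgeR (0.53% of all genes). An unadjusted p under 0.05 was reached by 0 (7.73% of all genes), and the median log2 fold change was -0.20. In lists this short, 0 genes past the FDR is near the share over all genes. Gdi2 was at 0.22 (standard error 0.19), Ccz1 at 0.18 (standard error 0.33), Tbc1d15 at -0.10 (standard error 0.30) and Chm, a Rab escort protein, at 0.42 (standard error 0.42).

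Of 13 effectors of Rab7, 0 passed the threshold in either direction (0.53% of all genes), and the median log2 fold change was -0.10. Vps35, a retromer subunit, was at 0.09 (standard error 0.21), Vps29, another subunit, at 0.07 (standard error 0.31), Osbpl1a, a sterol sensor on late endosomes, at -0.66 (standard error 0.35) and Fyco1, which links late endosomes to kinesin, at -0.71 (standard error 0.30). Fyco1 alone had an unadjusted p under 0.05 (edgeR FDR = 0.532, with 3.25% of all genes lower at that p). Of the 8 subunits of the HOPS and CORVET tethers, which hold endosomes together before fusion, 0 passed (0.53% of all genes). Their median was -0.03. Vps41 was at 0.09 (standard error 0.30), Vps33a at 0.10 (standard error 0.47), Vps16 at -0.23 (standard error 0.43) and Vps11 at -0.15 (standard error 0.48). Of 5 SNARE genes of late endosomes 4 were tested and 0 passed (0.53% of all genes), with a median of 0.16. Vamp7 was listed at 0 in every library. Vti1b was at -0.15 (standard error 0.28), Stx7 at -0.01 (standard error 0.22), Vamp8 at 0.33 (standard error 0.32) and Stx8 at 0.43 (standard error 0.32).

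The list closest to Rab7b held its binding partners Myh9, a myosin heavy chain, and Atg4b, an autophagy protease, and the retrograde cargo receptors Sort1, Igf2r and M6pr. None of the 5 passed an FDR of 0.05 (edgeR, all 14 libraries, 0.53% of all genes), and the median log2 fold change was -0.27. Sort1, the sorting receptor sortilin, had a mean of 248 CPM in the batch 1 controls, 323 in the batch 2 controls and 173 in the WD group (log2 fold change -0.74, standard error 0.26, FDR = 0.338), and was the one gene of the list with an unadjusted p under 0.05 (3.25% of all genes were lower at that p). Myh9 was at 0.47 (standard error 0.23), M6pr at -0.29 (standard error 0.37) and Igf2r at 0.44 (standard error 0.44).

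Of 11 genes of Toll-like receptors and their trafficking 10 were tested and 0 passed (0.53% of all genes). At an unadjusted p under 0.05, 3 were higher (4.48% of all genes), and the median log2 fold change was 1.40. Tlr9 was listed at 0 in every library. Tlr4 had means of 6.43, 12.7 and 14.1 CPM in the batch 1 controls, the batch 2 controls and the WD group (log2 fold change 0.51, standard error 0.81). Unc93b1, which carries nucleic acid-sensing Toll-like receptors to endosomes, had 20.5, 27.2 and 63.8 CPM (log2 fold change 1.40, standard error 0.43, FDR = 0.241). Ly96, the partner of TLR4 also called MD-2, was at 0.01 (standard error 0.54) and Cd14, its coreceptor, at 0.55 (standard error 0.68). These genes are also made by macrophages, of whose 10 markers 3 passed as higher in the WD group over all 14 libraries and 0 in batch 1. The part of macrophage number in the levels of the Toll-like receptor list was not tested. Of 7 GTPases of late endosomes and lysosomes, of which all but Arl8a and Arl8b are also in the Rab family above, 0 passed (0.53% of all genes). Their median was 0.34. The most abundant, Arl8b, was at 0.32 (standard error 0.29), Rab32 at 0.34 (standard error 0.65), Rab9 at 0.11 (standard error 0.70) and Rab29 at 0.44 (standard error 0.39).

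**Figure D5:**
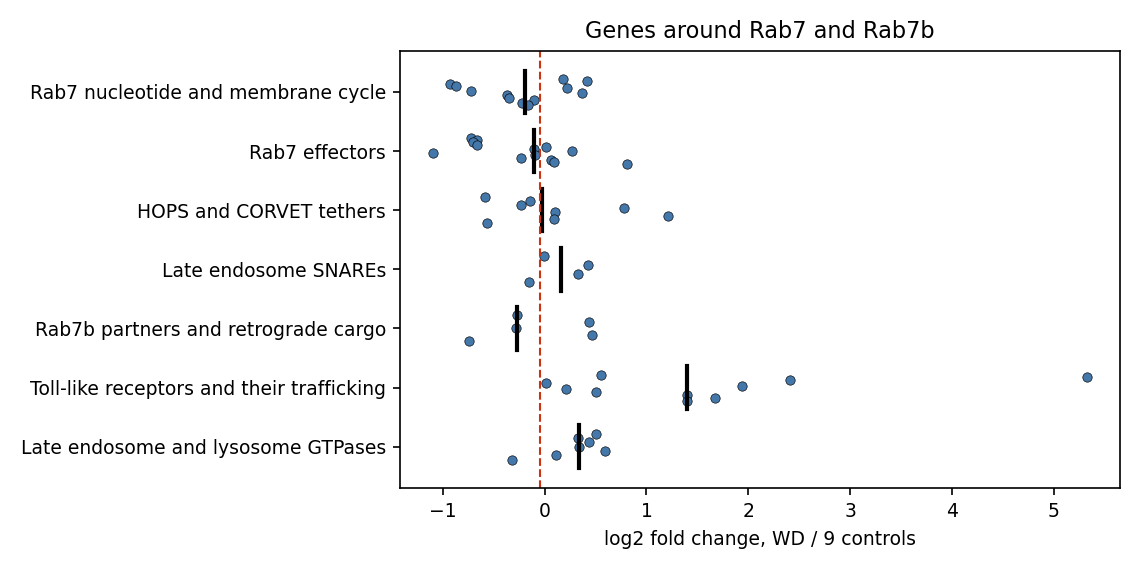
Log2 fold change of each tested gene of the 7 lists around Rab7 and Rab7b, WD group against all 9 controls. Points are genes, black lines are list medians, and the dashed line is the median over all 12653 genes tested (-0.04). The medians run from -0.27 to 0.34 in 6 lists and reach 1.40 for the Toll-like receptor list, in which 0 genes passed an FDR of 0.05.

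Within batch 1, 0 genes of these 7 lists passed in edgeR, and DESeq2 called Cd180 in addition to Rab30 of the Rab family. Cd180 averaged 0 CPM in the batch 1 controls and 7.36 CPM in the WD group (edgeR log2 fold change 9.46, standard error 2.12), so its value rests on controls without counts. The Rab7 effector gene Rubcn, listed under the older symbol 1700021K19Rik, alone was lower at an unadjusted p under 0.05 in batch 1 (1.82% of all genes), with a log2 fold change of -1.19. Higher at that p (3.35% of all genes) were Unc93b1 (log2 fold change 1.65), Vps39 (log2 fold change 2.60), Cd180 and Rab9b. Between the control batches 0 genes of the 7 lists or of the Rab family passed in edgeR. In that comparison 4 Rab genes were higher in batch 2 at an unadjusted p under 0.05 (3.85% of all genes). These were Rab34 (log2 fold change 1.32, standard error 0.41), Rab3d (log2 fold change 1.10, standard error 0.29), Rab9b and Rab30, of which the last pair averaged 0.0213 and 0.107 CPM in the batch 1 controls, below the level of 3 counts there (0.243 to 0.269 CPM). DESeq2 called Rab9b. Of the lists, Ly96 alone was lower in batch 2 at an unadjusted p under 0.05 (3.54% of all genes), with a log2 fold change of -1.43. Besides Rab9b, Plekhm1 (log2 fold change 1.21), Vps33a (log2 fold change 1.30) and Arl8b (log2 fold change 0.76) were higher at that p.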

How the data were processed

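QuantSeq libraries of eWAT RNA from 14 mice were analysed. The authors used Bowtie2 to align single-end 75-base reads and bedtools to count them per gene, multiple alignments included, and deposited raw counts. They also deposited log2 values after TMM and CPM normalization in edgeR; the tool versions are not given in the sources used here. The groups, batches and replicate numbers came from the labels. The sample titles number the samples within each diet, and the library names, used here, within each diet and batch. The p-values measure the spread between these libraries. The members, lists and tests were chosen with earlier results of these data known.

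The counts were tested with edgeR 4.0.16 in R 4.3.3 (quasi-likelihood test, TMM, edgeR's filter on low counts, Benjamini-Hochberg FDR under 0.05 over all genes tested, no covariates) in the WD group against the 4 batch 1 controls, the WD group against all 9 controls, and batch 2 against batch 1 controls. Single genes, as log2(CPM + 1), and ratios, with 1 added to each count before the logarithm, were tested by two-sided exact permutation with scipy 1.17.1. Total counts ranged from 10278970 to 13712254 per library. A floor of 3 counts and all levels cover counting error only, since no molecular identifiers are mentioned. The scripts were tested on simulated data. Sequences and gene models came from GRCm38 with its GENCODE annotation.

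Named genes were the members, list genes past an FDR of 0.05 (up to 6 per list) or else the 4 with the highest mean CPM per list, the 10 genes most like Rab7b and 5 most like Rab7, and Adgre1, Csf1r, Cd68, Itgax and Trem2. Others are named after their values were seen. Rubcn and Rubcnl were found under older symbols, and Ly6g was not matched. Besides the 10 macrophage genes named, 1 gene of that list is not reported here. Alternatives were other scaling and filters, DESeq2 1.42.0, limma-voom (limma 3.58.1), the replicate number as a block, batch as a covariate, the batch 2 controls only, each library left out, a pseudocount of 0.1 and the authors' log2 values.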

Additional observations from a re-analysis of the deposited data

How the results depend on the processing

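The log2 fold change of Rab7b between the diets kept its direction in every alternative, and ran from 2.07 to 2.86 in batch 1 and from 2.43 to 2.86 against all 9 controls with each library left out. Rab7b was chosen for this rise, and its WD and control ranges do not overlap. Leaving out a library could therefore not reverse the direction, and its constancy is no test. The log2 fold change of Rab7 did not pass an FDR of 0.05 in any setting and ran from 0.12 to 0.45 and from 0.11 to 0.35. The ratio of Rab7b to Rab7 between the control batches ran from -1.09 to -0.21 on the log2 scale.

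The number of genes called depended on the settings, and the cause was not tested. DESeq2 gave 114 genes in batch 1, 225 against all 9 controls and 111 between the control batches. Against all 9 controls, limma-voom gave 223 genes, a filter that asks each library for 1 CPM or more gave 128, batch as a covariate 1 and the batch 2 controls only 773, in place of 67. With libraries left out, the counts ran from 0 to 48 in batch 1 (48 without batch 1 control 4), from 28 to 289 against all 9 controls (289 without batch 1 control 4, 190 without batch 1 control 1, 29 without WD 1, 42 without WD 2, 28 without WD 3, 33 without WD 4 and 40 without batch 2 control 1) and from 0 to 2 between the control batches (2 without batch 1 control 4, 1 without batch 1 control 1). Among the listed genes other than the members, DESeq2 called 2 in batch 1 and 1 between the control batches, and the batch 2 controls only, a setting chosen for the lists after seeing the data, gave 4 (Rab5c, Rab8b, Sort1 and Osbpl1a). With libraries left out the list count ran from 0 to 1 against all 9 controls, where it was Rab8b without batch 1 control 4 and Cd180 without batch 2 control 4, and was 0 in the other comparisons.

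Between the control batches the log2 fold change of Rab7b ran from -0.80 to 0.0184 (reversed without batch 1 control 2) and that of Rab7 from -0.0615 to 0.27 (reversed without batch 1 control 3). Across the controls r between Rab7b and Rab7 ran from -0.158 to 0.61 with libraries left out (-0.16 without batch 1 control 2), between Rab7b and Adgre1 from 0.16 to 0.61, Csf1r from 0.01 to 0.60 and Itgax from 0.29 to 0.48, and for Csf1r it was -0.0877 without the 2 farthest libraries. None of these values passed its test.

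The replicate numbers, taken from the library names, were shared across groups but did not pair the libraries. The correlation of same-numbered deviations ran from -0.04 to 0.08, and not every library correlated best with its own number. The sample titles number the controls of both batches in a single series, so by title the control groups share no number. With the replicate number as a block, 93 genes passed against all 9 controls and 0 in the other comparisons. The log2 fold change of Rab7 with the replicate block was 0.49 (standard error 0.34) in batch 1, 0.27 against all 9 controls and 0.23 between the control batches, and that of Rab7b was 2.76, 2.83 and -0.27.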
